A study of Mus musculus with 7 samples.

Results

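The 10 genes described here are the inhibitors of cyclin-dependent kinases (CDKs) of both families and the retinoblastoma pocket proteins, taken by gene symbol from a table of 27179 mouse genes. They are the CIP/KIP inhibitors Cdkn1a, Cdkn1b and Cdkn1c, the INK4 inhibitors Cdkn2a, Cdkn2b, Cdkn2c and Cdkn2d, and the pocket proteins Rb1, Rbl1 and Rbl2. All 10 were found in the table, by symbol. RNA was sequenced from whole ankles of mice of the DBA1 strain that had collagen-induced arthritis, brought on by immunising the animals with collagen. Into the joint of 4 ankles a lipid carrier (lipoplex) holding miR-17-5p mimic had been injected, and into that of 3 ankles the same kind of carrier with an irrelevant control microRNA. All ankles were arthritic, all were flash frozen after the skin had been taken off, and the labels give neither the age of the mice, the dose, the time of sampling nor whether each ankle is from a different mouse. The p-values therefore measure the spread between these samples, which may be partly technical.

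CDK inhibitors hold back the kinases that drive a cell from G1 into S phase: the INK4 proteins bind Cdk4 and Cdk6 alone, while the CIP/KIP proteins bind complexes of cyclins with several CDKs. The pocket proteins act downstream of them, binding E2F transcription factors and silencing the genes of DNA replication and division until CDKs phosphorylate them. MicroRNAs of the miR-17 family are best known for promoting proliferation, and Cdkn1a and Rbl2 are among their reported targets, so the comparison bears on whether these transcripts were lower when the microRNA was raised in the inflamed joint.

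A microRNA finds its targets mainly through its seed, bases 2 to 8, which is shown in capitals in the mature mouse sequence (RefSeq, GRCm38.p6, chr14:115043684-115043706, plus strand).
miR-17-5p: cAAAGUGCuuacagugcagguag
For every gene the longest 3 prime UTR in GENCODE M21 (GRCm38) was scanned for letters that pair with this seed, as the 8mer GCACTTTA, the 7mer GCACTTT or the 7mer CACTTTA. Of the 10 genes, 5 held at least 1 match: all 3 pocket proteins, Cdkn1a and Cdkn2b. Of 12507 tested genes with an annotated UTR, 22.1% held one. Rbl2 alone among the 10 held 2 matches, an 8mer and a 7mer, as did 4.71% of tested genes with 2 or more. The 23 bases that would lie opposite the microRNA are shown for each match, in the sense of the transcript, with the matched bases in capitals, because the results below are read by whether a gene holds one.
Rbl2, 8mer, chr8:91123136-91123158, plus strand: cctgtgtaattggtgGCACTTTA
Rbl2, 7mer, chr8:91123197-91123219, plus strand: tgtatatttatgatgGCACTTTc
Rb1, 7mer, chr14:73196360-73196382, minus strand: cagtacaacccaagtGCACTTTt
Rbl1, 7mer, chr2:157147476-157147498, minus strand: ctttgcctgatcaaaGCACTTTt
Cdkn1a, 7mer, chr17:29099814-29099836, plus strand: cctcagacctgaataGCACTTTg
Cdkn2b, 7mer, chr4:89306366-89306388, minus strand: aaaatagtttaataacCACTTTA
Cdkn1b, Cdkn1c, Cdkn2a, Cdkn2c and Cdkn2d held none of these letters in the window searched. A match is a description of sequence and not a measured site. The level of the microRNA itself was not analysed here.

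The libraries held between 27465276 and 31118975 assigned reads, recovered from the deposited values. Levels are FPKM, fragments scaled by exon length and by library size, and so can be compared between genes. Differences are log2 differences (log2 fold changes), mimic minus control, of FPKM + 0.5 from limma. Their p-values were adjusted by Benjamini and Hochberg over 13418 genes, those averaging 1 FPKM or more. The library of control replicate 5 carried keratinocyte transcripts that the others lacked: 6 keratinocyte genes summed to between 1.36 and 1.68 FPKM in the mimic libraries, and to 1.13, 1.04 and 80.6 FPKM in control replicates 2, 3 and 5, although the skin had been removed. The library of control replicate 2 also stood apart, since 317 of 13422 genes (2.36%, of which 202 or 1.5% of those tested were lower in mimic ankles) were called without it, against 0 with all libraries.

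Of the 10 genes, 9 passed the filter on low values and were tested. Cdkn2a did not pass it, with a mean of 0.759 FPKM. Of the 9, 0 were called at an adjusted p under 0.05 with limma, as were 0.0% of all genes tested, and at an unadjusted p under 0.05 there were 2, Cdkn1c with a higher mean and Cdkn2d with a lower mean in mimic ankles, where 17.6% of all genes tested had such a p, 7.48% with a higher and 10.1% with a lower mean. The groups did not overlap for 1 of the 9, Cdkn2d, where they did not for 15.3% of all genes tested, 8.84% lower and 6.48% higher in mimic ankles. With limma-voom on the recovered reads 0 genes were called as well, and 2362 had an unadjusted p under 0.05. The median log2 difference of the 9 genes was -0.01, as it was over all genes tested. In whole-ankle RNA, fewer cells of a type and less RNA per cell cannot be told apart.

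**Figure D1:**
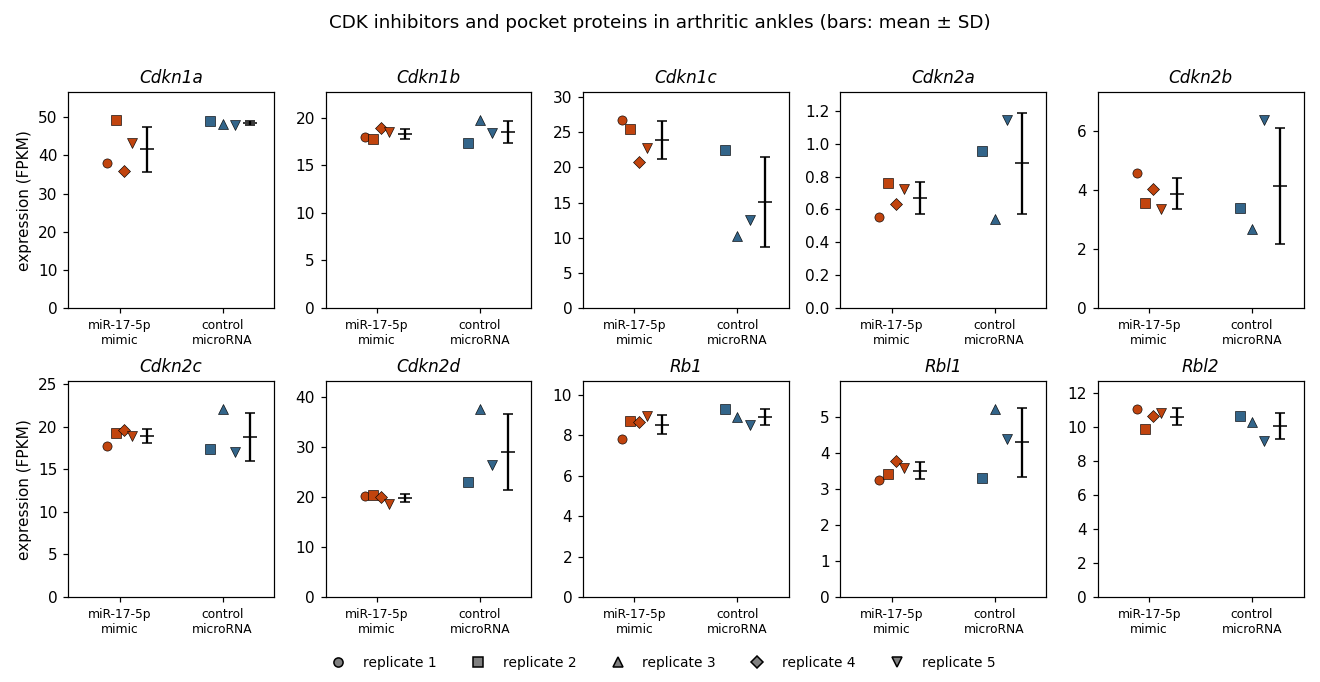
Expression in FPKM (vertical axes, each from 0) of the 10 genes in each of the 4 mimic libraries (orange, left) and 3 control libraries (blue, right), with the replicate number as the symbol and the mean ± SD beside the points. All 4 mimic libraries lie below the 3 control libraries for Cdkn2d, and Cdkn1c is high in all mimic libraries and in control replicate 2, at 22.4 FPKM.

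Levels averaged over the 7 libraries formed steps. Cdkn1a, which encodes p21, was the most abundant at 44.6 FPKM on average and stood above Cdkn2d, the next, in 7 of 7 libraries. Cdkn2d (23.7 FPKM), Cdkn1c (20.1), Cdkn2c (18.8) and Cdkn1b (18.4) formed a middle group whose order changed between libraries: Cdkn2d stood above Cdkn1c in 3 of 7, Cdkn1c above Cdkn2c in 5 of 7 and Cdkn2c above Cdkn1b in 4 of 7. Rbl2 (10.4 FPKM) and Rb1 (8.69) came below them on average and kept their order in 7 of 7 libraries. In control replicate 3, though, Rbl2 (10.31 FPKM) stood just above Cdkn1c (10.27 FPKM). Cdkn2b (3.99 FPKM) and Rbl1 (3.85) stood in that order in 5 of 7, and Cdkn2a was last in every library. These levels rest on 102 to 3101 reads per gene and library for the 9 tested genes, and on 17 to 40 reads for Cdkn2a.

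Among the CIP/KIP inhibitors, the group that binds cyclin and CDK together, the 3 members differed in how they stood between the groups. Cdkn1a (mm10 chromosome 17, 29090986 to 29100722, plus strand, 4 exon blocks) is the inhibitor induced by p53 and a reported miR-17 target. It stood at 38.2, 49.2, 35.9 and 43.4 FPKM in mimic replicates 1, 2, 4 and 5, against 49.1, 48.4 and 47.9 FPKM in control replicates 2, 3 and 5. The control libraries lay within a narrow band while the mimic libraries were spread, 3 of them below every control library and mimic replicate 2 above every one. The mean was 41.6 ± 5.93 FPKM in mimic ankles (SD, n = 4) and 48.5 ± 0.59 FPKM in control ankles (SD, n = 3), a log2 difference of -0.23 (SE 0.11, limma adjusted p = 0.321), with a 95% interval from -0.48 to 0.02. On a linear scale that interval runs from -28.2% to 1.68%. Without mimic replicate 2 the log2 difference was -0.31 and the groups did not overlap, as for 18.6% of all genes tested without that library, and the gene was still not called. Of the 50-base words of annotated Cdkn1a transcripts, 2.14% also occur in transcripts of other genes, where reads could be misassigned or dropped.

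Cdkn1b (chromosome 6, 134920401 to 134925525, plus strand, 3 exon blocks) encodes p27, whose level is set largely by protein degradation. It was the steadiest of the 3, between 17.8 and 18.9 FPKM in mimic libraries and between 17.3 and 19.7 FPKM in control libraries. The log2 difference was -0.01 (SE 0.06), with a 95% interval from -0.15 to 0.13, which leaves room for a difference from -10.1% to 9.12%, and without control replicate 3 it was 0.03. Its transcript carries a long 3 prime UTR of 3439 bases with a 6mer CACTTT but none of the longer matches.

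Cdkn1c (chromosome 7, 143458339 to 143461050, minus strand, 4 exon blocks) encodes p57, an imprinted inhibitor expressed from the maternal allele and known from embryonic cartilage, muscle and other differentiating tissues. It had the widest difference of the 9 genes: 26.7, 25.4, 20.8 and 22.7 FPKM in mimic replicates 1, 2, 4 and 5, against 22.4, 10.3 and 12.5 FPKM in control replicates 2, 3 and 5. Control replicate 2 lay among the mimic libraries, and the other 2 control libraries stood at about the same low level. The mean was 23.9 ± 2.66 FPKM in mimic ankles (SD, n = 4) and 15.1 ± 6.47 FPKM in control ankles (SD, n = 3), a log2 difference of 0.72 (SE 0.24, limma adjusted p = 0.219) with a 95% interval from 0.15 to 1.28. Without control replicate 2 the log2 difference was 1.04 and the gene was called (limma adjusted p = 0.0302), as were 0.857% of 13422 genes in that direction. Without control replicate 3 it was 0.49 (limma adjusted p = 0.419), and over all alternatives the adjusted p ran from 0.0302 to 0.567.

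Of the imprinted genes near Cdkn1c on chromosome 7, 3 of 6 were tested, and 0 were called. Igf2, the paternally expressed growth factor of the adjoining imprinted domain, stood at 18.2, 20.9, 18.7 and 18.05 FPKM in mimic replicates 1, 2, 4 and 5, against 17.8, 10.2 and 10.2 FPKM in control replicates 2, 3 and 5. As with Cdkn1c, control replicate 2 was the high control library, yet the groups did not overlap (log2 difference 0.60, SE 0.19, limma adjusted p = 0.209). The same held, with mimic ankles higher, for 6.48% of all genes tested. H19, the maternally expressed noncoding RNA beside Igf2, differed otherwise, at 351 ± 73.1 FPKM in mimic ankles and 362 ± 139 FPKM in control ankles (SD, n = 4 and 3), and Slc22a18, a transporter gene next to Cdkn1c, had a log2 difference of 0.23 (SE 0.17). Marker genes of several tissues also had higher means in mimic ankles. All 7 adipocyte genes had a higher mean in mimic ankles, with a summed level of 826 to 1132 FPKM against 504 to 822 FPKM in control ankles, and 7 of 8 cartilage genes did, with sums of 770 to 912 FPKM against 694 to 821 FPKM. All 12 skeletal muscle genes had a higher mean, with sums of 2900 to 10562 FPKM in mimic and 1274 to 7300 FPKM in control ankles. None of these markers was listed at 0 throughout. Library by library, the muscle list mean lay on the same side of its average as Cdkn1c, except in mimic replicate 1. There the muscle list mean was below its average and Cdkn1c was highest. The cartilage and adipocyte list means did likewise, except in control replicate 2. There both were below their averages and Cdkn1c was high. When the mean of the muscle genes was added to the fit, Cdkn1c had a log2 difference of 0.55 (limma adjusted p = 0.487), and the part of the adipocyte and cartilage genes in it was not tested.

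Of the INK4 inhibitors, Cdkn2d was the single gene among the 10 with no overlap between the groups. Cdkn2d (chromosome 9, 21288463 to 21291209, minus strand, 2 exon blocks) encodes p19 INK4d, an inhibitor of Cdk4 and Cdk6. It stood at 20.2, 20.4, 20.05 and 18.6 FPKM in mimic replicates 1, 2, 4 and 5, against 23.02, 37.5 and 26.4 FPKM in control replicates 2, 3 and 5. The mimic libraries lay close together and the control libraries far apart, with control replicate 3 highest. The mean was 19.8 ± 0.79 FPKM in mimic ankles (SD, n = 4) and 29.0 ± 7.58 FPKM in control ankles (SD, n = 3), a log2 difference of -0.51 (SE 0.15, limma adjusted p = 0.197) with a 95% interval from -0.86 to -0.16. The value was -0.31 without control replicate 3 (limma adjusted p = 0.353) and -0.66 without control replicate 2 (limma adjusted p = 0.0549), and over all alternatives the adjusted p ran from 0.0549 to 0.524. Of 12 neutrophil markers, all had a lower mean in mimic ankles, with a summed level of 1376 to 3541 FPKM against 3213 to 6567 FPKM in control ankles, control replicate 3 again the highest. Unlike Cdkn2d, the neutrophil list mean overlapped between the groups. Relative to its average it was higher in mimic replicates 1 (0.18) and 4 (0.14) than in control replicate 2 (-0.16). The 7 tested osteoclast genes also had lower means, with sums of 2068 to 2279 FPKM against 2601 to 2748 FPKM. Markers of other cells, some with higher means, are given with Rbl1 below. None of these markers was listed at 0 throughout, and their part in the difference of Cdkn2d was not tested.

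Cdkn2c (chromosome 4, 109660876 to 109665372, minus strand, 2 exon blocks), which encodes the related inhibitor p18, hardly differed in mean. It stood at 17.8, 19.2, 19.6 and 18.9 FPKM in mimic replicates 1, 2, 4 and 5, against 17.3, 22.02 and 16.98 FPKM in control replicates 2, 3 and 5. The mimic libraries lay inside the range of the control libraries, whose highest was again control replicate 3. The log2 difference was 0.02 (SE 0.10), with a 95% interval from -0.21 to 0.24, and it was below 0 without mimic replicate 4, control replicate 2 or control replicate 5, at lowest -0.05. The ratio of Cdkn2c to Cdkn2d, which no scaling of the libraries can alter, was 0.88, 0.95, 0.98 and 1.01 in the mimic libraries, against 0.75, 0.59 and 0.64 in the control libraries. The groups did not overlap for this ratio, nor for Cdkn1a over Cdkn1c, out of 12 ratios within the 3 families, of which these 2 were picked out after their values were seen and so carry no test. Cdkn1a over Cdkn1c was 1.43, 1.93, 1.73 and 1.91 in the mimic libraries, against 2.19, 4.71 and 3.82 in the control libraries.

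Cdkn2a and Cdkn2b lie side by side on chromosome 4, with 11669 bases between them, and are known as a locus that is switched on in senescent cells. Cdkn2a (89274473 to 89294619, minus strand, 4 exon blocks) encodes both p16 INK4a and, from another first exon, the p53 activator p19ARF. The table joins both first exons in 1 gene, so these transcripts cannot be told apart. Cdkn2a stood at 0.55, 0.76, 0.63 and 0.73 FPKM in mimic replicates 1, 2, 4 and 5, against 0.95, 0.54 and 1.142 FPKM in control replicates 2, 3 and 5, with overlapping groups. Cdkn2b (89306289 to 89311032, minus strand, 2 exon blocks) encodes p15, an inhibitor induced by TGF-beta. It stood at 4.57, 3.55, 4.04 and 3.36 FPKM in mimic replicates 1, 2, 4 and 5, against 3.38, 2.67 and 6.36 FPKM in control replicates 2, 3 and 5. Both genes were highest in control replicate 5, the library with keratinocyte transcripts. The log2 difference of Cdkn2b was -0.01 (SE 0.25), with a 95% interval from -0.60 to 0.58, and 0.31 without control replicate 5 (limma adjusted p = 0.568). Its sign also turned without mimic replicate 2 or 5. No 50-base word of an annotated transcript was shared by any pair of the 10 genes, Cdkn2a and Cdkn2b included.

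**Figure D2:**
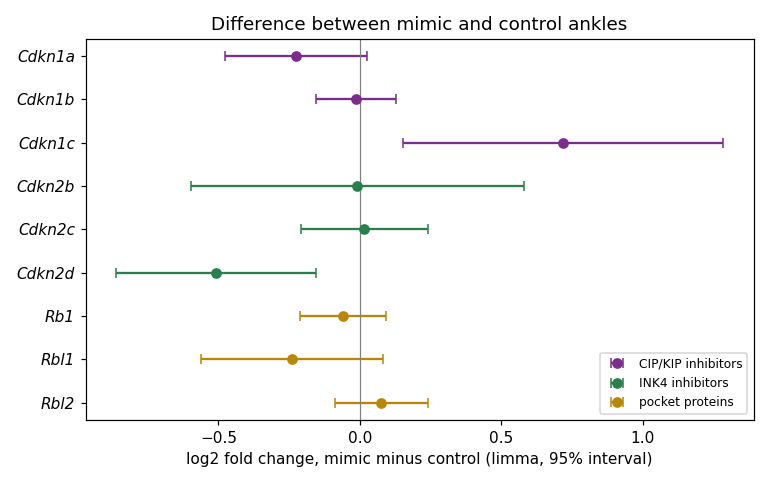
Log2 difference of the 9 tested genes, mimic minus control (horizontal axis), as points with 95% intervals from limma, coloured by family. The intervals of Cdkn1c (0.15 to 1.28) and Cdkn2d (-0.86 to -0.16) lie on 1 side of 0 before adjustment for the number of genes, and those of Cdkn1b, Rb1 and Rbl2 are the narrowest.

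The pocket proteins, each with a seed match, did not differ beyond the spread of the libraries. Over all tested genes with an annotated UTR, the median log2 difference was -0.0093 for 2765 genes with an 8mer or 7mer. It was -0.0062 for 7246 genes with no match, 6mer included. Genes with a 6mer alone are in neither group, and the medians were not tested against each other. Rbl2 (chromosome 8, 91070094 to 91123844, plus strand, 22 exon blocks) encodes p130, the pocket protein of resting cells, and holds the 8mer and the 7mer shown above. It stood at 11.04, 9.91, 10.6 and 10.8 FPKM in mimic replicates 1, 2, 4 and 5, against 10.6, 10.3 and 9.18 FPKM in control replicates 2, 3 and 5. The groups overlapped, with the mimic mean the higher: 10.6 ± 0.49 FPKM in mimic ankles (SD, n = 4) and 10.0 ± 0.76 FPKM in control ankles (SD, n = 3). The log2 difference was 0.08 (SE 0.07, limma adjusted p = 0.575) with a 95% interval from -0.09 to 0.24, or from -5.85% to 18.1% on a linear scale. Without control replicate 5 the difference was 0.02 (limma adjusted p = 0.961), and without control replicate 2 it was 0.12 (limma adjusted p = 0.338). The last 346 exon bases of Rbl2 overlap those of Aktip on the other strand, downstream of both seed matches. Aktip stood at 14.6 to 17.6 FPKM in mimic and 11.6 to 15.8 FPKM in control libraries, and since the strand setting of the counting is not given in the sources used here, its part in the Rbl2 value was not tested.

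Rb1 (chromosome 14, 73195502 to 73325791, minus strand, 27 exon blocks) encodes the retinoblastoma protein itself. It stood at 7.82, 8.69, 8.68 and 8.93 FPKM in mimic replicates 1, 2, 4 and 5, against 9.28, 8.93 and 8.51 FPKM in control replicates 2, 3 and 5. The groups overlapped, and the lowest library was mimic replicate 1. The log2 difference was -0.06 (SE 0.07), with a 95% interval from -0.21 to 0.09, or from -13.7% to 6.72%, and it was -0.02 without mimic replicate 1 and -0.03 without control replicate 2.

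Rbl1 (chromosome 2, 157145893 to 157204534, minus strand, 22 exon blocks) encodes p107, the pocket protein that is made in dividing cells. It stood at 3.24, 3.42, 3.79 and 3.59 FPKM in mimic replicates 1, 2, 4 and 5, against 3.29, 5.21 and 4.39 FPKM in control replicates 2, 3 and 5. Control replicate 2 lay among the mimic libraries and the other 2 control libraries above them. The mean was 3.51 ± 0.23 FPKM in mimic ankles (SD, n = 4) and 4.30 ± 0.96 FPKM in control ankles (SD, n = 3), a log2 difference of -0.24 (SE 0.14, limma adjusted p = 0.386). Without control replicate 2 it was -0.40 and the groups did not overlap (limma adjusted p = 0.0695), as for 40.6% of all genes tested without that library. Without control replicate 3 it was -0.10.

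Rbl1 is itself a textbook E2F-regulated gene. Its promoter window, from 250 bases before to 50 after the annotated start (RefSeq, GRCm38.p6, chr2:157204485-157204784, minus strand), is shown because it holds a copy of the E2F motif, in capitals.
Rbl1 promoter: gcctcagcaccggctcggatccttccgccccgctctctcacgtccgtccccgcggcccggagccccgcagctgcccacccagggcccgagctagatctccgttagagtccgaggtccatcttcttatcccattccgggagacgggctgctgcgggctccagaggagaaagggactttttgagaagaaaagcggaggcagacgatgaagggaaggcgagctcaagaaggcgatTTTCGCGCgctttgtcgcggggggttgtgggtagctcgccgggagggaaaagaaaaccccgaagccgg
The motif was searched on both strands as TTTCCCGC, TTTCGCGC, TTTGCCGC or TTTGGCGC. The promoter table had 11 windows of 8 of the 10 genes, all but Rb1 and Cdkn1c. Of these 2 held the motif (18.2%), the second belonging to the upstream start of Cdkn2a, against 3.77% of the windows of tested genes. The window of Cdkn2d held none of these letters.

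Rbl1 was set beside other genes that E2F regulates. Of 24 genes of DNA replication and division, all had a lower mean in mimic ankles. Their median log2 difference was -0.38, against -0.01 over all genes tested. The list as a whole overlapped between the groups, with sums of 317 to 382 FPKM in mimic and 355 to 506 FPKM in control ankles. Its mean log2 value, relative to the average of the libraries, was higher in mimic replicate 4 (0.04) than in control replicate 2 (-0.07). At an unadjusted p under 0.05 there were 14, all lower (10.1% of all genes tested were lower at such a p), and the groups did not overlap for 7, all lower (8.84% of all genes tested), but 0 were called with limma. Cdk1, the mitotic kinase, stood at 14.4, 14.9, 17.6 and 13.8 FPKM in mimic replicates 1, 2, 4 and 5, against 19.5, 25.2 and 24.1 FPKM in control replicates 2, 3 and 5 (log2 difference -0.58, SE 0.11, limma adjusted p = 0.173). Tk1, a nucleotide salvage enzyme of S phase, had a log2 difference of -0.53 (SE 0.10) and Ccnb1, the mitotic cyclin, of -0.58 (SE 0.14). Both the list mean and Rbl1 were highest in control replicates 3 and 5, and the order of these 2 was the same. Cdkn2d was highest in the same 2 libraries, in the same order, while Cdkn1c was lowest in them. Markers of some other cells differed in the same direction, those of osteoclasts, neutrophils and, through control replicate 5 alone, keratinocytes. Macrophage (4 lower and 5 higher means), fibroblast (4 and 4), lymphocyte (3 and 3) and endothelial genes (2 and 4) were split. Muscle and adipocyte genes all had higher means, as did most cartilage genes and the 6 erythroid genes tested of 11. The erythroid list mean, relative to its average, was nevertheless lower in mimic replicate 5 (-1.14) than in control replicates 2 (-0.31) and 3 (-0.15). All 7 tested osteoclast genes of 8 had a lower mean in mimic ankles, each with no overlap between the groups, and the list summed to 2068 to 2279 FPKM in mimic and 2601 to 2748 FPKM in control ankles. The 12 neutrophil genes, all with a lower mean in mimic ankles, summed to 6567 FPKM in control replicate 3 and 5534 FPKM in control replicate 5, their highest libraries. None of these markers was listed at 0 throughout, and their part in the values of Rbl1 and the E2F-regulated genes was not tested.

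**Figure D3:**
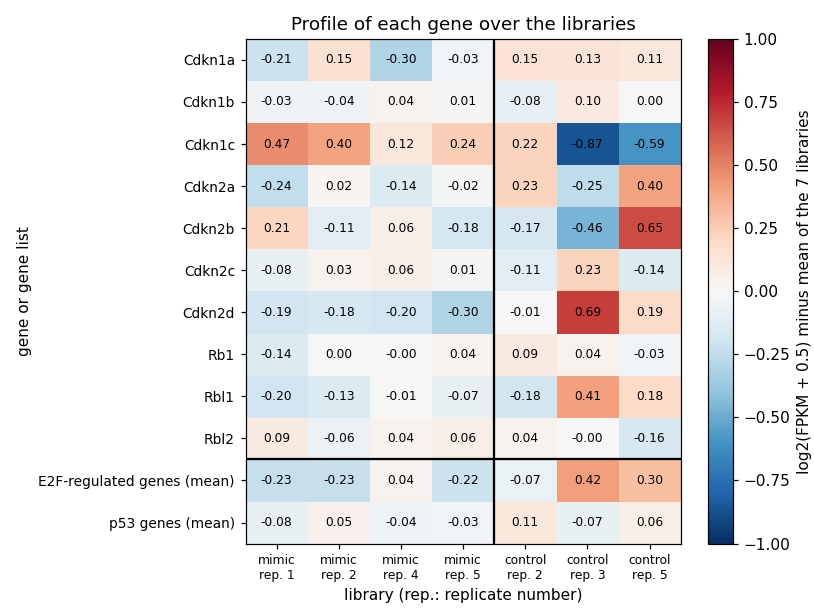
Log2(FPKM + 0.5) of each of the 10 genes (rows) in each library (columns, mimic left of the line, control right of it) minus the mean of that gene over the 7 libraries, with the mean of 24 E2F-regulated genes and of 19 p53 genes below. Control replicate 3 is high for Cdkn2d (0.69) and Rbl1 (0.41), as for the E2F-regulated genes (0.42), and low for Cdkn1c (-0.87).

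The partners of the 10 genes were described from gene lists. Of the cyclins and kinases that the inhibitors bind, 9 of 10 were tested, 8 had a lower mean in mimic ankles, and 0 were called (median log2 difference -0.17). Ccna2, the cyclin of S phase and mitosis, had a log2 difference of -0.40 (SE 0.14), Ccne1, which activates Cdk2 before S phase, of -0.34 (SE 0.16) and Ccnd1, the cyclin of Cdk4 and Cdk6, of -0.19 (SE 0.10). Of 10 E2F and DP factors, 8 had a lower mean and 0 were called (median -0.12). Tfdp2, a partner of E2F in DNA binding, was above the control range in every mimic library, at 4.47, 4.73, 4.62 and 4.78 FPKM in mimic replicates 1, 2, 4 and 5, against 3.79, 3.92 and 3.04 FPKM in control replicates 2, 3 and 5 (log2 difference 0.34, SE 0.09, limma adjusted p = 0.176). E2f3, an activating E2F, and E2f4, which binds p107 and p130, lay below the control range in every mimic library, with log2 differences of -0.16 (SE 0.07) and -0.13 (SE 0.05). Of all genes tested, 8.84% lay below the control range in this way and 6.48% above it. Of 7 genes of the DREAM complex, the repressor that p107 and p130 build, with its activating counterparts, 5 had a lower mean and 0 were called (median -0.09). Foxm1, the activator of mitotic genes, had a log2 difference of -0.46 (SE 0.11), Lin54, the DNA-binding subunit, of -0.31 (SE 0.08), and Mybl2, which drives mitotic genes, of -0.37 (SE 0.14). Lin52, named after its values were seen, went the other way. It was above the control range in every mimic library (log2 difference 0.19, SE 0.07).

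Cdkn1a was also set beside the other genes that p53 activates. Of 19 genes tested, which include p53 itself and its inhibitors, 12 had a lower and 7 a higher mean in mimic ankles, the median log2 difference was -0.06, and 0 were called. Mdm2, the ubiquitin ligase of p53, stood at 20.2 ± 0.62 FPKM in mimic and 22.04 ± 0.47 FPKM in control ankles (SD, n = 4 and 3), Btg2, an antiproliferative gene, had a log2 difference of -0.35 (SE 0.11) and Tnfrsf10b, a death receptor, of -0.28 (SE 0.11). For these 3 and for Bax, an activator of cell death, the groups did not overlap, 4 of 19 genes, where 8.84% of all genes tested did not overlap with the mimic ankles lower. Bax, named after its values were seen, stood at 57.1 to 68.3 FPKM in mimic and 69.0 to 77.2 FPKM in control libraries. Gadd45a, a stress gene named after its values were seen, varied far more within each group than between them, at 48.4 ± 26.1 FPKM in mimic and 52.5 ± 40.4 FPKM in control ankles. Of 10 genes for the degradation of the inhibitors or the silencing of Cdkn2a, 9 were tested, with 4 lower and 5 higher means and 0 called (median 0.01). Cks1b, a cofactor in the breakdown of p27, was below the control range in every mimic library, as were 8.84% of all genes tested. It stood at 31.6 ± 2.32 FPKM in mimic and 42.0 ± 6.25 FPKM in control ankles (SD, n = 4 and 3). Skp2, which recognises p27, had a log2 difference of -0.20 (SE 0.11) and Ezh2, a silencer of Cdkn2a, of -0.12 (SE 0.10).

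**Figure D4:**
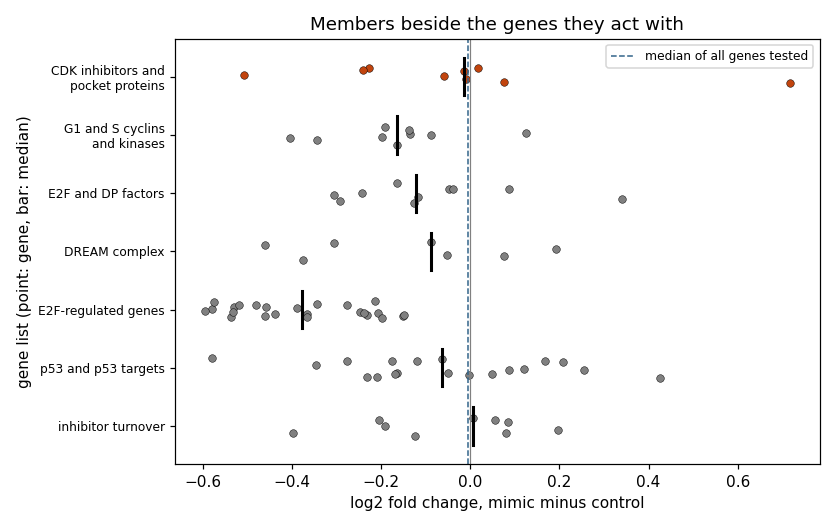
Log2 difference, mimic minus control (horizontal axis), of each tested gene (points) in the 10-gene set (top) and in 6 lists of genes it acts with, with the median of each list as a bar and the median of all genes tested as a dashed line. The 9 tested CDK inhibitors and pocket proteins spread to both sides of 0, while all 24 E2F-regulated genes lie below it.

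The tested genes whose profile over the 7 libraries lay nearest to Cdkn1a, by the root mean square difference of their centred log2 values, were Mycbp (0.069), Rad51c (0.073) and Galnt5 (0.074), where the median over all tested genes was 0.225. For Rbl2 they were Runx2 (0.016), Stk35os1 (0.022) and Cul9 (0.026), where the median was 0.152. Rbl2 varies little, and genes that vary little lie near it by this measure.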

How the data were processed

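The authors deposited FPKM per gene and library in 1 table, per the file headers, with Entrez numbers, exon positions and the joined exon length in bases. Tools listed without a role in the submitters' processing notes are STAR 2.5.2b, bcl2fastq 2.20, DESeq2 1.14.1, Subread and featureCounts, and the genome is listed as GRCm38 and mm10. Which annotation and strand setting were used is not given in the sources used here. Of 27179 Entrez numbers, 25275 matched a RefSeq symbol. Multiplied by length, 100% of values were whole multiples of a step per library within 0.01 of a read, and so the reads were recovered (in a gene of 1 kilobase, 1 read was worth 0.0321 to 0.0364 FPKM). No pair of libraries agreed within sampling noise (chi-square per gene at least 17.6 over 21 pairs), so none was treated as a library deposited more than once; this does not show that the ankles came from separate animals.

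The test was limma 3.58.1 in R 4.3.3, with an empirical Bayes variance trend, on log2(FPKM + 0.5) for genes averaging 1 FPKM or more, 2-sided, with Benjamini-Hochberg adjustment at 0.05. It was tested on simulated data. The fold change understates differences of low genes. Lists are described by counts and medians. The 10 genes and the lists were chosen with earlier results of these data known. All 10 genes are named, with up to 3 genes of smallest p from each pathway list and the 3 nearest profiles to Cdkn1a and Rbl2. Python 3.11.15, pandas 2.3.3 and matplotlib 3.10.9 were used. The replicate numbers 2 and 5 occur in both groups, but the labels do not say that they pair ankles. Alternatives were other pseudocounts, filters and scalings, no trend, array weights, limma-voom on recovered reads, the replicate number as a block, a muscle covariate and leaving out each library.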

Additional observations from a re-analysis of the deposited data

Results flagged for a closer look

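In 31 genes, the 4 mimic libraries were examined for a library far from the rest, and 1 gene stood out, where chance flags about 1 in 20 groups. Ccnb1, the mitotic cyclin, stood at 7.69 FPKM in mimic replicate 4, the highest of the 4 mimic libraries, while the other 3 lay close together. No CDK inhibitor or pocket protein stood out in this way.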

How the results depend on the processing

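Among the 10 genes, Cdkn1a, Cdkn1c, Cdkn2d, Rb1, Rbl1 and Rbl2 kept their direction under each alternative in which they could be tested, but not their size. The replicate block gave -0.07 for Cdkn1a, -0.10 for Rbl1 and -0.01 for Rb1, and the muscle covariate gave 0.04 for Rbl2 and -0.12 for Rb1. Under a mean of at least 5 FPKM, Cdkn2b and Rbl1 were not tested. The members whose log2 fold change lay near 0 changed sign. Cdkn1b was 0.0023 with quantile normalization, 0.023 with the replicate block and 0.00056 with the muscle covariate. Cdkn2b was 0.31 with the muscle covariate, and Cdkn2c was -0.021. Leaving out each replicate gave from -0.058 to 0.032 for Cdkn1b, from -0.24 to 0.31 for Cdkn2b, from -0.049 to 0.13 for Cdkn2c and from 0.49 to 1.04 for Cdkn1c, the last called without control replicate 2 alone. It gave from -0.31 to -0.16 for Cdkn1a, from -0.66 to -0.31 for Cdkn2d, from -0.09 to -0.02 for Rb1, from -0.40 to -0.10 for Rbl1 and from 0.02 to 0.12 for Rbl2. The number of the 10 genes called was 0 to 1 and the number with no overlap 1 to 3 when a replicate was left out, where 18.6% to 40.6% of all genes tested had no overlap, the most without control replicate 2. Over all genes 0 to 317 were called, 317 without control replicate 2, 2 without mimic replicate 5, and 1 with no filter. With the replicate block 0 of the 10 were called, Cdkn1c at 0.51 and Cdkn2d at -0.33. That fit draws the difference from numbers 2 and 5 alone, the numbers found in both groups. Its smallest limma adjusted p over all genes tested was 0.524, so it had little power to call any gene. The deviations of same-numbered libraries from their group means correlated at 0.54 for number 2 and -0.43 for number 5. As these have opposite signs, they cannot tell whether the replicate numbers pair the samples. The seed-match count was 5 over all annotated UTRs and 6 with the 6mer.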
